A study of Homo sapiens with 4 samples.

Results

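Intron retention events are stretches of a gene that some assembled transcripts keep as exon and others splice out. Here they are the events of 4 types in the transcript tables of IMR-32 cells, each with a retained form (ON) and a spliced form (OFF). An event coded IR was read as 1 intron with matched exon boundaries, MIR as a run of several introns, and XIR and XMIR as the same with approximate boundaries. Over the 4 libraries, 18260 such events in 4350 genes were listed among 147302 events of every type. Both forms were listed somewhere for 10261 events, the retained form alone for 3392 and the spliced form alone for 4607. Of these, 6359 events in 2720 genes passed the filter for testing, a mean of at least 1 FPKM over both forms and a form listed in every library. FPKM is fragments per kilobase of transcript per 1000000 mapped fragments, and retention is the FPKM of the retained form as a percentage of the FPKM of both forms.

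IMR-32 is an established neuroblastoma cell line with MYCN amplification. Cells of both groups carried a doxycycline-inducible short hairpin RNA and were given doxycycline at 1 µg/mL for 48 h, with a control hairpin in 2 libraries (shControl) and a hairpin against NEUROD1 in 2 libraries (shNeuroD1). The comparison asks which retained introns differ after knockdown of NEUROD1, a neurogenic transcription factor. The labels do not say whether libraries of a group came from separate cultures, so p-values measure only the spread between these libraries. All results are from 1 line, and which hairpin sequence was used is not given in the labels.

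An intron is normally removed by the spliceosome, which reads a donor site at the 5′ end (usually GT) and an acceptor site at the 3′ end (usually AG). A transcript that keeps an intron may be held in the nucleus as a detained transcript, be degraded when the intron brings an early stop codon, or be translated into another protein. Genes for splicing factors themselves are well known for retained introns and for regulating their own level through them. Short introns with weak sites are in general retained more often than long ones.

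Splice sites are shown for the 5 introns of the largest differences below that are single annotated introns with sequence in a GENCODE 29 transcript, and for an SNRNP70 intron nested in another of those events. Each donor has 3 exon bases and 6 intron bases and each acceptor 20 intron bases and 3 exon bases, in the sense of the gene, with the donor and acceptor dinucleotides in capitals. Positions are hg38 and mark the intron, the chromosome strand being minus except for CD46 and SNRNP70.
DDX39A donor, chr19:14409982-14410215: gatGTgagt
DDX39A acceptor: actgaggtctggtgcagcAGgtc
HNRNPU donor, chr1:244846707-244848787: tagGTattc
HNRNPU acceptor: cataattctattttaatcAGcta
ZNF692 donor, chr1:248855636-248855724: cagGTaacc
ZNF692 acceptor: tccctctttgctgcccgtAGcac
ZFC3H1 donor, chr12:71611098-71611785: aatGTaatg
ZFC3H1 acceptor: tttttttttttttctcttAGagc
CD46 donor, chr1:207767196-207770320: aagGTacaa
CD46 acceptor: aatcaaacttatttttctAGgtc
SNRNP70 donor, chr19:49103588-49104633: tcgGTaaat
SNRNP70 acceptor: cctccccacatctgttacAGccg

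Gene counts summed, in units of 1000000, to 15.4 and 16.5 for shControl and to 14.7 for each shNeuroD1 library. CPM is counts scaled to a library total of 1000000. That total was adjusted by TMM scaling for genes given with an edgeR test and left unadjusted for the cell type markers below. NEUROD1 had 419 and 414 CPM with the control hairpin and 63.7 and 58.2 with its own (log2 fold change -2.77, SE 0.05, adjusted p = 8.59e-29, edgeR quasi-likelihood test). Of 8 neuroblastoma markers, 6 had a mean over 10 CPM, with DBH and TH below it. Of 6 fibroblast or mesenchymal markers, COL1A1 (mean 27.0 CPM) and PDGFRB (12.7 CPM) were over 10 CPM. No blood, endothelial, epithelial or Schwann marker listed was. Of 5 blood markers, 3 were at 0 in every library and the highest mean was 0.178 CPM. Of 3 epithelial markers, 1 was at 0 in every library, while EPCAM had 0 and 0.0607 CPM in shControl, against 1.91 and 1.43 in shNeuroD1. Neither NEUROD1, MYCN, USP1 nor USP12 had a retention event that passed the filter. The mitochondrial share of counts was 4.37% and 4.59% for shControl, against 5.39% and 5.51% after knockdown.

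Most introns with a retained form were short, coding and mostly spliced. Of 4656 distinct single introns tested (types IR and XIR), 85.1% matched an annotated GENCODE 29 intron exactly, which left 3964 introns in 2370 genes. Of these, 89.0% lay in coding sequence, 6.86% in noncoding transcripts, 2.32% in a 5′ UTR and 1.79% in a 3′ UTR. Their median length was 506 bases, against 1031 bases over the 40957 introns of the GENCODE basic set in the same genes. The quartiles of length were 204 and 1368 bases in the tested introns and 309 and 2888 bases in the annotated ones.

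**Figure D1:**
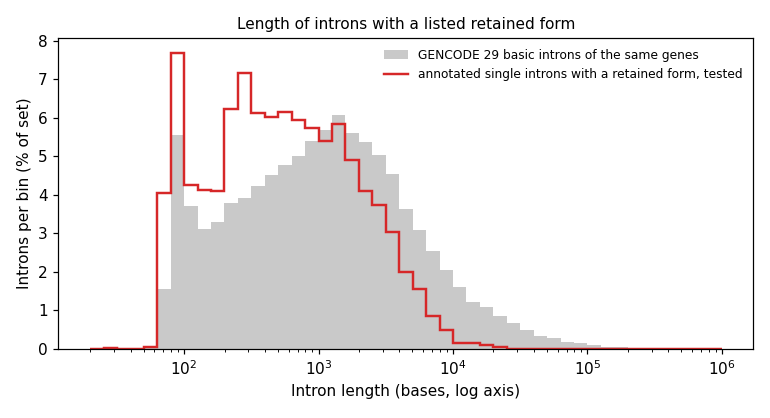
Share of introns in each length bin (vertical axis, percent of the set) against intron length in bases on a log axis. The red line is the 3964 annotated single introns tested and the grey area the 40957 introns of the same genes; the red line lies above the grey area below about 1000 bases and under it in the longer bins.

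Position in the gene went with the level of retention. The median of the mean retention was 5.84% for 3529 coding introns, 35.7% for 92 introns of 5′ UTRs, 44.8% for 272 introns of noncoding transcripts and 49.5% for 71 introns of 3′ UTRs. Counted in the annotated transcript of most exons that holds the intron, it was 6.27% for 3756 internal introns, 68.0% for 101 first introns and 52.4% for 101 last introns. Among event types the same median was 7.16% for IR, 3.87% for MIR, 25.1% for XIR and 12.3% for XMIR. These are descriptions over introns, which are not replicates of a condition, and several events can share a transcript: 988 of the 6359 tested events repeat the interval of another type.

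The splice sites themselves could be read for 2299 of the annotated introns (58.0%), those with a GENCODE transcript whose exon spans the intron. Their ends were GT and AG in 2263 (98.4%) and GC and AG in 33 (1.44%). Donors of the 1081 introns with mean retention under 5% matched the consensus CAGGTAAGT at a mean of 6.03 of 9 bases, and those of the 367 introns with retention of at least 50% at 5.86. The 15 acceptor bases that end 5 bases before the exon were pyrimidines at a mean of 74.6% in the first set and 70.1% in the second. Median GC content was 53.9% and 52.5% and median length 257 and 249 bases, so among introns with sequence the less and the more retained ones were alike in length. Median expression of both forms was 9.67 FPKM in the less retained introns and 3.62 FPKM in the more retained ones. Over all 3964 introns the Spearman correlation of mean retention with this expression was -0.34 and with length 0.08, as descriptions across introns that share libraries.

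Some introns were kept at a like level in every library. Of the annotated single introns, 40 stayed between 10% and 90% in all 4 libraries with a range of at most 10 percentage points, counting 1 per gene, a rule set after the values were seen. The 10 with the most retained transcript were in RPS18, SUPT7L, GNL3, GTPBP2, PNP, CERS2, NOL11, CPXM1, RHBDD3 and NELFCD.

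Intron 7 of 14 of GNL3, the nucleolar GTPase nucleostemin, had a retention of 23.7% and 24.8% in shControl, against 21.7% and 20.2% in shNeuroD1. That of PNP, which encodes purine nucleoside phosphorylase, was 52.7% and 50.6% against 53.1% and 51.1%. The intron of GTPBP2, a GTPase linked to ribosome rescue, was at 46.1% and 54.3% against 51.7% and 55.1%. In these 3 genes the retained form reached 9.72 to 14.5 FPKM in every library. Their log2 changes of the ratio of retained to spliced form were -0.26 (SE 0.39), 0.03 (SE 0.41) and 0.18 (SE 0.45), values that the choice of introns with a narrow range keeps small. The groups of GNL3 did not overlap.

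RPS18, a ribosomal protein gene, shows how much the event type matters. Its intron of 109 bases was at 83.3% and 81.5% in shControl, against 89.7% and 86.6% in shNeuroD1 when coded XIR. Coded IR, the same interval was at 4.11% and 4.18% against 4.17% and 4.16%, with a mean of 1656 FPKM over both forms in place of 80.7. The FPKM of the retained form was alike under both codes, and that of the spliced form it is set against was not. Ribosomal protein genes have processed copies elsewhere in the genome, so this level is uncertain.

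**Figure D2:**
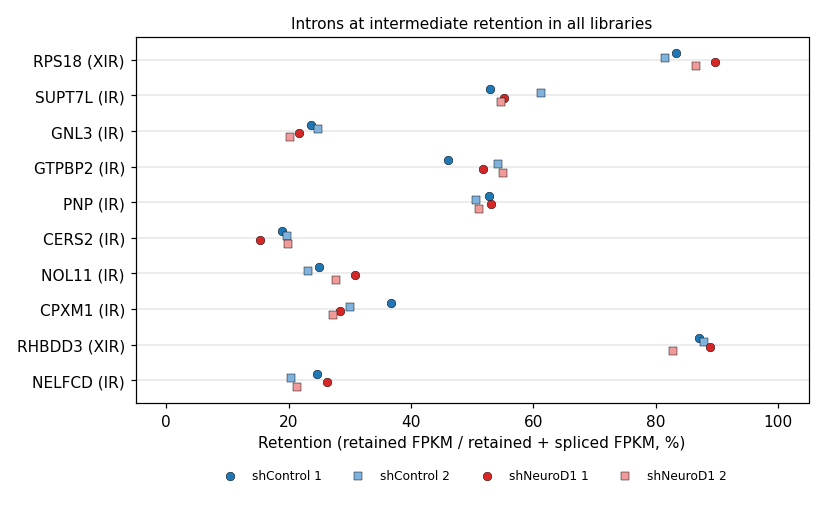
Retention in percent (horizontal axis) of the 10 introns kept at an intermediate level with the most retained transcript, 1 point per library (blue shControl, red shNeuroD1). The points of a gene lie within 10 percentage points of each other, from about 15% in CERS2 to 89.7% in RPS18.

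Knockdown of NEUROD1 left no intron whose retention passed the test. In limma on the log2 ratio of retained to spliced form, 0 of 6359 events were higher and 0 lower at an adjusted p under 0.05 (0% in each direction), with a smallest adjusted p of 0.331. At an unadjusted p under 0.05 there were 504 events (7.93%), 283 higher and 221 lower in shNeuroD1. The FPKM of the retained form alone likewise gave 0 events in either direction in limma (0%), with 249 higher and 179 lower at an unadjusted p under 0.05. Data were also simulated, without repeats, with normal residuals of each event's own spread and 200 of 6359 events changed. The test found none of these at a shift of 4 log2 units and 64% at a shift of 8, so only very large shifts were called there. Residuals of the real data need not follow a normal law, so these shares are only a guide to what could have been called.

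Libraries differed widely from each other, within groups as well as between them. Spearman correlations of retention over the tested events were 0.47 between the shControl libraries, 0.42 between the shNeuroD1 libraries and 0.38 to 0.43 between groups. Retention differed by over 50 percentage points in 535 events between the shControl libraries, in 591 between the shNeuroD1 libraries and in 567 to 595 between libraries of different groups. The retained form of 1874 to 1997 tested events was unlisted, and so counted as 0, in a shControl library and that of 1794 to 1804 in a shNeuroD1 library.

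Groups did not overlap in 896 events that were higher in both shNeuroD1 libraries (14.1% of those tested) and in 756 that were lower (11.9%). Set against each other as pairs of 1 shControl and 1 shNeuroD1 library, the same values gave 1381 and 1454 events without overlap, where the labelled pairs gave 1652. Among the 896 events, the median log2 change was 0.79 for the retained form and -0.21 for the spliced form. Among the 756 it was -0.61 and 0.27. The host genes of both sets had a median log2 fold change near 0 (-0.03 and -0.07).

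**Figure D3:**
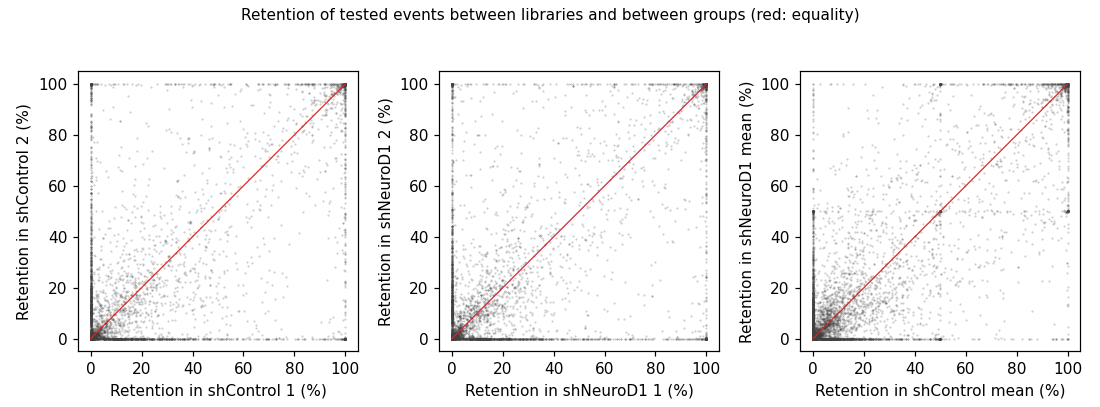
Retention of each tested event in percent, between the 2 shControl libraries (left), the 2 shNeuroD1 libraries (middle) and the group means (right), with the line of equality in red. Events whose retained form is unlisted in 1 library of a panel lie along the axes in the left and middle panels. Both replicate panels show events spread far from the line; the right panel shows means of 2 libraries and so cannot be compared with them in width.

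Across all tested events the level of retention was a little higher in shNeuroD1. Per library, median retention stood at 1.61% and 2.02% for shControl, against 3.06% and 2.61% after knockdown, a difference of 1.02 percentage points (exact permutation test over 4 libraries, two-sided p = 0.333, the smallest this design allows). Mean retention was 22.3% and 22.8% against 23.2% and 23.2%. Retained forms made up 10.6% and 9.72% of the summed FPKM of both forms in shControl and 11.5% and 11.7% in shNeuroD1. The groups did not overlap in any of these measures, each of which had the same exact permutation p of 0.333, before and after adjustment over the 3 of them. The direction of the median changed with the treatment of low and unlisted forms. With a pseudocount of 1 FPKM the difference was -0.46 points, and over the 2464 events with both forms listed in all libraries it was 0.07 points.

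Mean retention of the groups lay farther apart for the longer introns, though the difference between length classes was not tested. For the 1282 annotated single introns over 1000 bases, mean retention was 14.9% and 15.7% in shControl, against 17.9% and 18.7% in shNeuroD1. The 2682 introns of up to 1000 bases had 19.7% and 19.7% against 19.6% and 19.2%. A retained form was listed for 51.2% and 54.3% of the longer introns in shControl and for 59.2% and 60.7% in shNeuroD1, and for 73.7% to 75.5% of the shorter introns in all 4 libraries. The groups did not overlap in either measure of the longer introns (exact permutation p = 0.333 for each, the smallest possible). They did not overlap either in the mean retention of the shorter introns, which was lower in shNeuroD1. By summed FPKM both classes were higher in shNeuroD1: the retained forms of the shorter introns made up 9.62% and 9.20% in shControl, against 10.6% and 10.1%, and those of the longer introns 9.69% and 10.7%, against shares of up to 13.9% and a group mean of 13.5%. The split at 1000 bases was chosen after the values were seen.

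Of the 1282 longer introns, 187 were higher and 103 lower in both shNeuroD1 libraries, and of the 2682 shorter ones 349 and 364, where the shares over all events were 14.1% and 11.9%. In the 133 introns over 5000 bases, mean retention was 13.5% and 12.4% in shControl, against 19.1% and 19.2% in shNeuroD1. For the 261 longer introns with both forms listed in every library, the medians overlapped, at 8.27% and 12.9% against 10.2% and 12.4%. The shNeuroD1 libraries had the higher mitochondrial share given above and listed more transcript features of all types, 141783 and 141792 against 138652 and 141234; the part of either in the retention values was not tested.

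**Figure D4:**
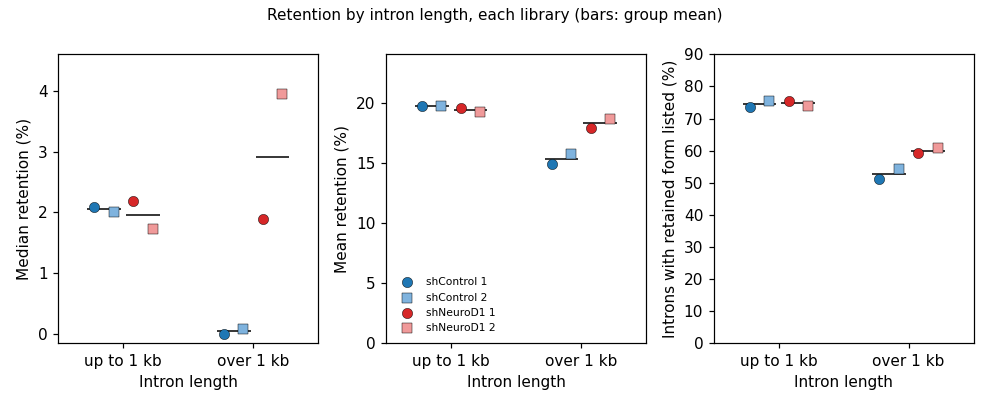
Median retention, mean retention and share of introns with a listed retained form (vertical axes, percent) for annotated single introns of up to and over 1000 bases, 1 point per library with the group mean as a bar. Points of the groups mix for the shorter introns in the left and right panels, and for the longer introns both shNeuroD1 points lie above both shControl points.

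By the rule for naming events, no event passed the test, so those named are the largest differences in mean retention among the 920 events without overlap and with a mean of at least 5 FPKM, 1 per gene. None of these 20 events passed the log ratio test (adjusted p from 0.331 to 0.713). All were chosen for their difference, so their folds describe these libraries. The mean of 5 FPKM was over all 4 libraries, so in some events 1 group alone met it. Both libraries of 1 group were under 5 FPKM for SNRNP70, DDX39A, ZNF692, IFI44, SLC25A36, CCDC136, NUDT5, CD46 and MPHOSPH9.

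HNRNPU encodes an RNA-binding protein of the nuclear matrix that also affects splicing. Its 3′ UTR intron of 2081 bases (XIR, chromosome 1) had retained forms at 10.2 and 14.8 FPKM in shControl and unlisted in both shNeuroD1 libraries. The spliced form was at 0.707 and 0.712 FPKM in shControl and at 6.83 and 10.8 in shNeuroD1. Retention was thus 93.5% and 95.4% against 0% and 0%, the groups far apart, with a log2 ratio change of -7.59 (SE 0.51, adjusted p = 0.331, limma). A longer event over the same intron (XMIR) had the same retained FPKM. Its spliced form was at 0.587 and 0.581 FPKM in shControl, against 0.390 and 0.0463. These percentages compare only the listed forms of an event. HNRNPU as a whole was at 1523 and 1567 CPM in shControl, against 1097 and 1108 (log2 fold change -0.49, SE 0.04, adjusted p = 1.01e-12, edgeR).

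DDX39A encodes a DEAD-box helicase of mRNA splicing and export. The retained form of an intron of 234 bases, number 6 of 6 in an annotated transcript, was at 2.57 and 1.79 FPKM in shControl and at 0.438 and 1.03 in shNeuroD1. Its spliced form was unlisted in shControl and at 17.4 and 13.7 FPKM in shNeuroD1, giving retention of 100% and 100% against 2.45% and 7.02%. No library of one group reached the other, and the difference came mostly from whether the spliced form was listed. The event met the 5 FPKM minimum only through shNeuroD1.

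ZFC3H1 encodes a zinc finger protein that links nuclear polyadenylated RNA to the exosome. Retention of its intron 32 of 34, 688 bases long, was 99.6% and 95.0% in shControl, against 39.0% and 40.2% in shNeuroD1. Retained forms were at 4.72 and 5.41 against 3.28 and 3.46 FPKM and spliced forms at 0.0195 and 0.285 against 5.13 and 5.15 FPKM. This was one of the few named events with both forms listed in every library. ZFC3H1 itself was higher in shNeuroD1 in the gene counts, by 0.42 on the log2 scale (SE 0.06, adjusted p = 7.49e-08, edgeR).

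ZNF692, a zinc finger gene, also had both forms in every library at an intron of 89 bases, with retention of 71.1% and 76.6% in shControl, against 0.399% and 0.340% in shNeuroD1. SFPQ, a paraspeckle and splicing factor, had 93.9% and 98.5% against 0% and 77.8%, so both shNeuroD1 libraries lay below shControl but far from each other. ARIH2, a ubiquitin ligase, had 73.8% and 55.7% against 0% and 0% at a 5′ UTR intron. IFI44, an interferon-induced gene, had 99.9% and 99.4% against 0% and 0%, its spliced form staying under 0.03 FPKM in all libraries. It met the 5 FPKM minimum only through the retained form in shControl. In the gene counts ZNF692 rose by 0.74 on the log2 scale, while IFI44, ARIH2 and SFPQ fell by 0.998, 0.24 and 0.20. Each of these 4 genes had an adjusted p under 0.05 in edgeR.

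The other 3 lower events lay outside the GENCODE gene whose identifier the table gives. The event listed under SNORD61 (100% and 100% against 0% and 38.1%) lay in RBMX, a splicing factor gene. The one under TBC1D9B (37.3% and 73.3% against 0% and 0%) lay in MRNIP. The one under GOLGA8B (46.6% and 74.0% against 0% and 14.5%) lay in GOLGA8A, a near-identical copy, so its assignment is uncertain. In all, 88.0% of the 6359 tested events lay inside the gene of their identifier and 765 outside it.

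Among the 10 higher events, 7 had the retained form unlisted in both shControl libraries. SNRNP70 encodes the 70K protein of the U1 particle, which recognises donor sites. Its event of 2460 bases had retained forms at 7.87 and 8.67 FPKM in shNeuroD1 and none listed in shControl. The spliced form of this event was at 0.0337 and 2.92 FPKM in shControl and at 0.048 and 3.14 in shNeuroD1. Retention was thus 0% and 0% against 99.4% and 73.4%, and the event met the 5 FPKM minimum only through shNeuroD1. The nested intron whose sites are printed above, with a mean of 4.90 FPKM, had the same retained FPKM and a retention of 0% and 0% against 96.4% and 82.8%. Its spliced form was at 0.221 and 0.724 FPKM in shControl and at 0.298 and 1.80 in shNeuroD1. SNRNP70 counts did not pass the test for a change (log2 fold change 0.04, SE 0.04, adjusted p = 0.403, edgeR).

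E2F1, the cell cycle transcription factor, had its intron 4 of 6 spliced at 25 and 19.8 FPKM in shControl and at 6.27 FPKM and unlisted in shNeuroD1. Retained forms were listed in shNeuroD1 alone, at 1.37 and 1.77 FPKM, giving retention of 0% and 0% against 18% and 100%. The counts of E2F1 fell by 1.65 on the log2 scale (SE 0.06, adjusted p = 5.93e-21, edgeR), so the ratio rested on a lower spliced form as well as on the retained one.

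NUDT5, a nucleotide sugar hydrolase, and CD46, a complement regulator, had retained forms in both groups. Retention in NUDT5 was 37.3% and 10.2% in shControl, against 95.6% and 95.7% in shNeuroD1, with a log2 change of 0.05 in the retained form itself. In CD46 it was 0.271% and 13.2% against 100% and 34.0%. For both genes the spliced form was lower in shNeuroD1, at 0.0927 and 0.0936 against 4.83 and 11.4 FPKM in NUDT5.

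SLC25A36, a mitochondrial carrier of pyrimidine nucleotides, was at 0% and 0% against 98.5% and 77%. Its shControl libraries held only the spliced form, at 1.48 and 0.738 FPKM, so it met the 5 FPKM minimum only through shNeuroD1. MPHOSPH9 stood at 0% and 0% against 31.8% and 78.8%, with retained forms at 1.02 and 1.44 FPKM in shNeuroD1. Its spliced form was at 11.3 and 6.57 FPKM in shControl, against 2.19 and 0.389. The counts of MPHOSPH9 fell by 0.96 on the log2 scale (SE 0.05, adjusted p = 4.98e-17, edgeR). CCDC136 was at 0% and 0% against 52.7% and 95.9%. CCDC136 also met the minimum only through shNeuroD1, with 2.50 and 0.396 FPKM of spliced form alone in shControl. TCTN3, a gene of the ciliary transition zone, had 0% and 0% against 100% and 14.8%. The event under ZBTB24 (0% and 0% against 84.6% and 100%) lay in MICAL1. The event under TOMM6 (4.80% and 18.9% against 100% and 59.3%) lay where FRS3 and PRICKLE4 overlap on opposite strands. In these 6 events the shNeuroD1 libraries also differed from each other, most in TCTN3.

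**Figure D5:**
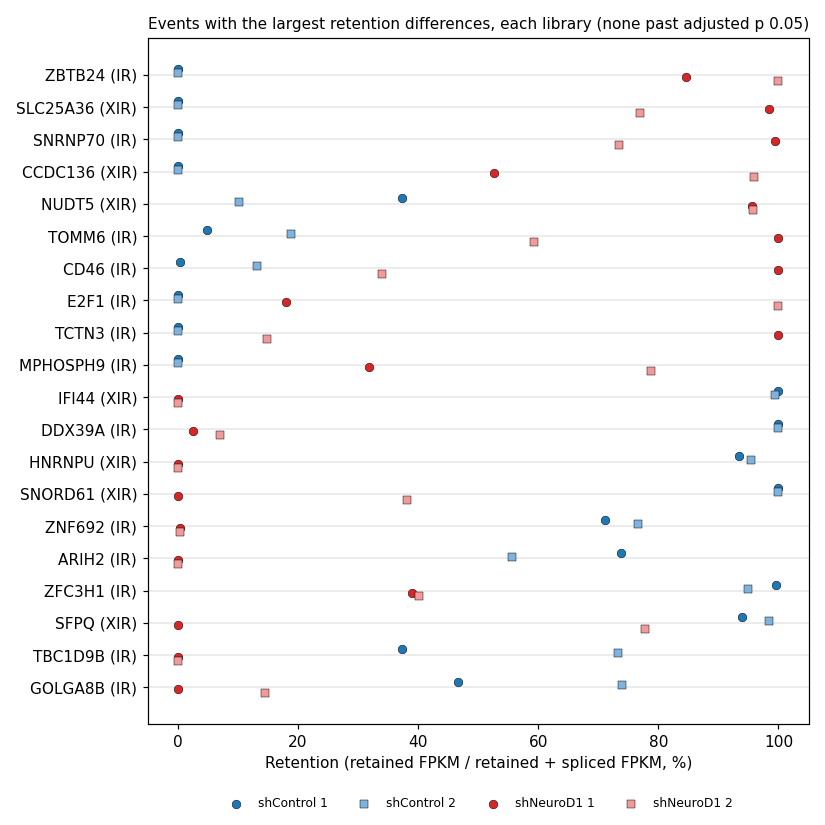
Retention in percent (horizontal axis) of the 10 higher and 10 lower events named in the text, 1 point per library (blue shControl, red shNeuroD1; event type in parentheses). HNRNPU, DDX39A, ZNF692, ZFC3H1 and IFI44 have both libraries of each group within 8 percentage points, while SFPQ, E2F1 and TCTN3 spread over more than 70 points within shNeuroD1.

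Fitted on the retention fraction in place of the log ratio, limma called 33 events higher (0.519%) and 30 lower (0.472%), in 52 genes. This scale adds no pseudocount, so forms at low FPKM count in full, and 48 of the 63 calls had a group with 0% in both libraries. HNRNPU, DDX39A, ZNF692, ZFC3H1 and IFI44 were among the lower ones (adjusted p = 0.014, 0.020, 0.032, 0.039 and 0.014). TIA1, an RNA-binding protein of stress granules and a regulator of donor site use, was among the higher ones (adjusted p = 0.014). Its event of 3105 bases, coded XMIR but matching an annotated intron, was at 0% and 0% in shControl, against 97.6% and 97.8% in shNeuroD1. Its retained forms were at 7.91 and 5.03 FPKM in shNeuroD1 and unlisted in shControl. Spliced forms were at 0.112 and 0.203 FPKM in shControl and at 0.192 and 0.113 in shNeuroD1. The event thus met the 1 FPKM minimum only through the retained form in shNeuroD1, and the call restates that listing. On the log ratio TIA1 had an adjusted p of 0.375.

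Some of these 63 calls, named after their values were seen, had close values in the libraries of each group. VCP, an ATPase that extracts ubiquitinated proteins, had an intron of 78 bases at 40.4% and 42.0% in shControl, against 12.9% and 11.9% in shNeuroD1, with a mean of 62.0 FPKM. FARSA, a subunit of phenylalanyl-tRNA synthetase, had an intron of 84 bases at 0% and 0% against 10.2% and 10.2%. In TRIP12, a ubiquitin ligase gene, an intron of 87 bases was at 100% and 100% against 79.1% and 78.1%. MAD2L1, a spindle checkpoint gene, had an intron of 3576 bases at 27.7% and 29.3% against 0% and 0%.

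Genes reported in the field to hold detained introns were also counted, 36 of a list of 49 having 151 tested events. Of these events 28 were higher and 17 lower without overlap, against 14.1% and 11.9% over all events, and 0 passed the log ratio test in limma (16 at an unadjusted p under 0.05). The median retention of the list was 3.45% and 7.15% in shControl, against 14.3% and 13.6% in shNeuroD1, the groups not overlapping. The median difference per event was 0.05 percentage points, beside 0.01 over all events. After TIA1 and SNRNP70 the largest differences were in the kinase gene PRPF4B (87.1% and 0.708% against 98.3% and 100%) and the splicing factor SRSF1 (0% and 100% against 100% and 100%), both of which overlapped or rested on 1 library.

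Splicing and RNA decay genes had 157 tested events in 48 of 120 genes. Without overlap, 16 were higher and 27 lower, where 14.1% and 11.9% of all tested events were. The median difference was -0.02 points and 0 passed in limma (12 at an unadjusted p under 0.05, beside 7.93% of all events). HNRNPU, SNRNP70 and ZFC3H1 led the list. An event of HNRNPA1, a hnRNP protein, was at 0%, 0%, 0% and 100%, with 340 FPKM listed for the retained form in 1 shNeuroD1 library alone.

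The expression of the splicing and decay genes themselves did change. In edgeR, 79 of the 120 fell and 9 rose at an adjusted p under 0.05, while 28.2% of all 17537 genes tested fell and 26.8% rose. The median log2 fold change of the list was -0.24, so the falls named next are the largest and not typical. EXOSC9, an exosome subunit, was at 111 and 106 CPM for shControl against 54.6 and 53.8 (log2 fold change -1.004, SE 0.06). EXOSC8 fell by 0.86 (SE 0.07), EIF4A3, of the exon junction complex, fell by 0.84 (SE 0.05) and SRSF7, a splicing activator, fell by 0.76 (SE 0.04), each on the log2 scale.

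The groups of these 4 genes lay far apart, with adjusted p from 1.26e-12 for EXOSC8 to 3.98e-16 for EXOSC9. The largest rises were in ZRSR2 (log2 fold change 0.77, SE 0.13) and RNPC3 (0.44, SE 0.08), both of the minor spliceosome, followed by ZFC3H1 (0.42, SE 0.06) and SRSF12 (0.19, SE 0.08). Scaled by library size alone, which moves the median of all genes from 0.01 to 0.12, the list had 61 falls and 18 rises, with a median of -0.12.

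The other 3 lists had few events. Their counts without overlap stand beside 14.1% higher and 11.9% lower over all tested events, and nothing was read from so few events. Cell cycle genes had 29 tested events in 20 of 97 genes, 8 higher and 4 lower without overlap. AURKB, a mitotic kinase, had an intron at 99.9% and 99.7% in shControl, against 25.3% and 34.3% in shNeuroD1, and G2E3 an intron at 0% and 0% against 84.2% and 77.2%. CDCA7, a MYC-responsive gene, stood at 45.8% and 62.1% against 100% and 79.7% at a 3′ UTR intron, and MCM7, a helicase subunit, at 0.0289% and 10.7% against 46.1% and 3.55%. In the gene counts 93 of the 97 genes fell and 2 rose, where 28.2% of all genes tested fell and 26.8% rose.

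Integrated stress response genes had 20 tested events in 9 of 33 genes, 6 higher and 0 lower without overlap, with a median difference of 0.00 points. SLC3A2, an amino acid transporter subunit, was at 0.0515%, 0.220%, 100% and 0.0937%, and CBS at 0%, 99.1%, 0% and 0%, so each difference rested on 1 library. VLDLR and GARS1 differed by under 10 points between group means. Neuronal differentiation genes had 8 tested events in 4 of 38 genes, 1 higher and 0 lower. CACNA1B, a calcium channel gene, stood at 0% and 49.7% against 73.2% and 100%, while KIF1A and TUBB3 overlapped between groups. In limma 0 events of these 3 lists passed on the log ratio, with 3 cell cycle, 4 stress response and 0 neuronal events at an unadjusted p under 0.05, beside 7.93% of all events.

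With both libraries of each group, more retained forms were listed in shNeuroD1 alone than in shControl alone. With at least 1 FPKM in both libraries of a group and no listing in the other group, 190 retained forms in 79 genes were found in shNeuroD1 and 107 in 52 genes in shControl. Pairs of 1 shControl and 1 shNeuroD1 library gave 80 to 120 such forms. The 190 forms were in genes whose counts rose for 67, fell for 65 and passed in neither direction for 56. The 107 forms of shControl were in genes that rose for 15, fell for 69 and passed in neither direction for 22. Over all 6359 tested events the host gene rose for 1734, fell for 2120 and passed in neither direction for 2177. A gene with several forms or events counts several times here. Set against all 6 pairs of libraries, the count of shNeuroD1 was the highest (one-sided exact permutation p = 0.167, the smallest possible) and that of shControl the third highest (p = 0.5). The order rested on having both libraries of each group: without shControl replicate 1 there were 319 forms in shNeuroD1 alone and 548 in shControl alone, and without shControl replicate 2 there were 340 and 517. Leaving out a library loosens the criterion for its own group. Forms of 1 gene can share a transcript.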

How the data were processed

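Polyadenylated RNA of 2 shControl and 2 shNeuroD1 libraries was sequenced by the authors. The deposited event tables give FPKM per event form and library; the program that called the events is not given in the sources used here. The deposited gene table gives raw read counts. The submitters' processing notes name cutadapt 1.9.1, HISAT2 2.0.1, HTSeq 0.6.1, DESeq2 and hg38. Whether counting used strand is not given, so overlapping genes are uncertain. The read depth behind an FPKM is unknown.

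Rows of the types IR, XIR, MIR and XMIR with an Ensembl gene were kept, duplicate rows dropped, rows with the same type, gene, position and form summed, and unlisted forms set to 0. Symbols were found for 4347 of 4350 genes. Intervals were matched to GENCODE 29, whose transcripts also gave the splice sites. Fits used log2((ON + 0.5)/(OFF + 0.5)) in limma 3.58.1 with a trend on expression and Benjamini-Hochberg adjustment, and log2(ON + 0.5) for retained forms; such folds understate low events. Genes were tested with edgeR 4.0.16 (TMM scaling, filterByExpr with a minimum count of 10). DESeq2 1.42.0 was an alternative. R was 4.3.3. The fits were tested on simulated data: 82% of 200 genes changed by 1 log2 unit were recovered among 17400.

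The members and gene lists were chosen with earlier results of these data known. The events named are the 10 largest differences in each direction, 1 per gene, without overlap and with at least 5 FPKM; up to 4 events per list with the largest differences; and the 4 splicing genes of largest change each way. The alternatives changed the pseudocount, filters, event types, row merging, scale, scaling, test and libraries.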

Additional observations from a re-analysis of the deposited data

Results flagged for a closer look

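Retained forms with no spliced form listed in any library had no retention value and entered no test. Of these, 47 forms in 27 genes were at 1 FPKM or more in both shNeuroD1 libraries and unlisted in both shControl libraries, which is above the 25 forms of the opposite pattern. Pairs of 1 library from each group gave 15 to 27 forms. The highest were under SYVN1, with 30.8 and 31.7 FPKM in shNeuroD1 at an interval outside the GENCODE gene, and VEZT, with 11.9 and 19.1 FPKM at an interval of 5 bases, which is too short to be an intron.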

How the results depend on the processing

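The retention fraction gave 33 higher and 30 lower events in place of 0 and 0. All other alternatives of that fit gave 0 and 0. The median difference was -0.464 with a pseudocount of 1 and kept its direction otherwise, from 0.0699 to 1.83. Leaving out a library gave 1.17 to 1.83 for it. Retained forms higher went from 0 to 735 without shNeuroD1 replicate 1 and 706 without shNeuroD1 replicate 2, against 0 without either shControl library, and lower ones to 13 and 26. Of the 748 and 732 calls in both directions, 647 and 613 had the form unlisted in both shControl libraries, where the only replicate pair then has no spread.

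Retained forms in shNeuroD1 alone were 346 at 0.5 FPKM, 68 at 2 FPKM and 126 with exact boundaries, and 319 to 756 with a library left out. Those in shControl alone were 203, 44 and 73, and 218 to 548. The order of the groups turned without shControl replicate 1 (319 against 548) and replicate 2 (340 against 517), and held without shNeuroD1 replicate 1 (756 against 218) and replicate 2 (754 against 256). Leaving out libraries and requiring a listed spliced form (143 and 82) were chosen after seeing the data. Splicing and decay genes that rose were 18 by library size, 5 without a count filter and 5 in DESeq2, and 4 to 6 with a library left out, 4 without either shControl library or shNeuroD1 replicate 2. Those that fell ranged from 61 to 79.

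Replicate numbers did not pair the libraries (correlation of deviations -0.0354 over events and 0.0158 over genes). With the replicate block the counts were 0 and 0 events, 0 and 0 retained forms, and 9 and 79 genes, with 373 events at an unadjusted p under 0.05.

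Of 284 alternative values of the 20 named events, 5 passed the threshold, all on the retention fraction; their direction was largely fixed by the choice of events without overlap.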
